A study of Mus musculus with 18 samples.

Results

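Peroxisomal fatty acid oxidation was followed through 9 genes in mouse liver: Abcd2, Abcd3, Ehhadh, Hsd17b4, Acaa1a, Acaa1b, Hacl1, Crat and Crot. They were chosen by name, as array probes whose annotation lists exactly 1 of these symbols; 10 of the 23521 probes with a single symbol did, which makes 9 of the 22180 genes named in this way. Crat had 2 probes and the other members 1 each, and where there was a choice the probe with the highest mean over the arrays was used. All 9 genes lay above the median probe, whose mean log2 signal was 4.48.

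The arrays hold liver RNA from male C57BL6 mice that ate their diet freely for 12 weeks, from 6 to 18 weeks of age. The low-fat diet gave 10% of its energy as fat and the high-fat diet 45%. On each diet there were 3 groups of 3 biological replicates: a control group with the diet alone, a PFOS group (perfluorooctane sulfonic acid, a fully fluorinated chain with a sulfonic acid head) and a PFNA group (perfluorononanoic acid, a fully fluorinated chain with a carboxylic acid head). The 6 groups are called low-fat control, low-fat PFOS, low-fat PFNA, high-fat control, high-fat PFOS and high-fat PFNA. No dose of either compound is stated in the labels, so whether they were matched is not known. The study asked how diet alters the effect of each compound on fatty liver.

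Peroxisomes shorten fatty acids that mitochondria handle poorly, such as very long chains, dicarboxylic acids and branched chains. The chains enter through ABC transporters of the membrane, pass through rounds of oxidation, hydration, a further oxidation and thiolytic cleavage, and leave as shortened acyl groups and acetyl groups bound to carnitine. In rodent liver many of these genes are classic targets of the nuclear receptor PPARA, which fatty acids and fibrate drugs activate, and Ehhadh and the thiolases are among the genes most used to read that activation.

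The promoters of 3 members are shown because Ehhadh and Acaa1b are the called members whose windows the table held, and Acaa1a, the close relative of Acaa1b, did not pass the test. Each window runs from 250 bases before to 50 bases after the annotated start in RefSeq (assembly GRCm38.p6), read 5′ to 3′ on the gene's strand. Ehhadh lies at chr16:21787785-21788084 on the minus strand, Acaa1b at chr9:119157044-119157343 on the minus strand and Acaa1a at chr9:119341044-119341343 on the plus strand. Capitals mark CCAAT on either strand (CCAAT or ATTGG).
Ehhadh: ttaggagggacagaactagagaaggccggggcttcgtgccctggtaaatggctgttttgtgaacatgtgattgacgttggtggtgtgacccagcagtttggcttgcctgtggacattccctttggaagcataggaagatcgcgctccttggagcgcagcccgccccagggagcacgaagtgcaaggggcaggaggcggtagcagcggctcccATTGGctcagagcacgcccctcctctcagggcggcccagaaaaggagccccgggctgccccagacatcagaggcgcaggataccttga
Acaa1b: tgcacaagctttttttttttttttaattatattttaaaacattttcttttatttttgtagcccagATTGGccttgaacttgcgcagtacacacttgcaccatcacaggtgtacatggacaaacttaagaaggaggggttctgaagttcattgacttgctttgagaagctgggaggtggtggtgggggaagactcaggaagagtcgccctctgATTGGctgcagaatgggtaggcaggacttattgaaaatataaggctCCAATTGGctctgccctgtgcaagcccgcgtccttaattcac
Acaa1a: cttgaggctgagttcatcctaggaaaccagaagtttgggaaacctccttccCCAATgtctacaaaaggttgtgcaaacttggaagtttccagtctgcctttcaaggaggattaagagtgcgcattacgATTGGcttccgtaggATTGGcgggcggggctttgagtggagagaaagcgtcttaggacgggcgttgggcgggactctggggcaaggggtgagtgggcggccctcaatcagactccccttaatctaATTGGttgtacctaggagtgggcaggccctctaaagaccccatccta
Both Ehhadh and Acaa1b had ATTGG at -38 to -34, counted from the start, and Acaa1a did not have it there. Acaa1b held 4 matches and Acaa1a also 4, at other positions, while Ehhadh held 1. The windows of Crot and Hacl1, which were not called, also held CCAAT or ATTGG, at other positions, and those of Abcd3 did not. CCAAT is a common word: 37.41% of the 32851 mouse windows of this length held it somewhere. How many held it at -38 to -34 was not counted. Windows of 6 of the 9 members were searched, 7 windows in all. None was at hand for Abcd2 and Crat, and Hsd17b4 was left out because of the chromosome it lies on. None of the 7 held the nuclear receptor hexamer AGGTCA on either strand, which 16.26% of all windows did. None held its direct repeat with 1 base between, searched as AGGNCANAGGNCA on either strand, which 0.38% of all windows held, nor TATAAA, which 13.62% did. These are letters in a short window and say nothing of binding. The Acaa1b window was poor in G and C, at 43.7% with 4 CpG, against 53.3% and 10 CpG in Acaa1a, 60.7% and 14 CpG in Ehhadh, and medians of 52.7% and 7 CpG over all windows. Acaa1a and Acaa1b were 51.8% identical over these windows when aligned, within the 42.6% to 53.7% spanned by all pairs of the 7 windows.

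Values are log2 array signal unless a fold is named, so a difference of 1 is a doubling. A level can be compared between groups for 1 gene but not between genes, because each probe has its own sensitivity. In whole liver, more RNA per cell and more cells of a type cannot be told apart.

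Abcd3, the abundant half-transporter of the peroxisome membrane, read 11.81, 11.71 and 11.53 in the low-fat controls and 11.61, 11.49 and 11.79 in the high-fat controls. Under PFOS it read 11.77, 11.68 and 12.35 on the low-fat diet and 12.50, 12.37 and 12.29 on the high-fat diet. Under PFNA it read 11.66, 11.65 and 11.84 on the low-fat diet and 11.72, 11.59 and 12.44 on the high-fat diet. The 3 high-fat PFOS livers, low-fat PFOS replicate 3 and high-fat PFNA replicate 3 stood above the other 13 arrays, the highest of which was at 11.84.

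Abcd2, the related transporter known for very long chain polyunsaturated acyl groups, had the widest spread of the members among control livers, with an SD of 0.68 on the low-fat and 0.33 on the high-fat diet (n = 3 each). Its low-fat controls read 7.30, 7.42 and 8.54 and its high-fat controls 9.13, 8.47 and 8.87. Under PFOS it read 8.13, 7.42 and 8.74 on the low-fat diet and 9.11, 8.79 and 9.12 on the high-fat diet, and under PFNA 7.0, 8.09 and 8.14, then 7.63, 8.99 and 8.88. The groups overlapped between exposed and control livers on each diet.

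Ehhadh, the bifunctional enzyme that hydrates and then oxidises straight-chain and dicarboxylic intermediates, showed the widest separation. Low-fat controls read 11.66, 11.31 and 11.29, low-fat PFOS livers 11.28, 11.64 and 13.17, and low-fat PFNA livers 11.21, 11.49 and 11.51. High-fat controls read 11.17, 11.05 and 11.13, high-fat PFOS livers 12.91, 13.26 and 13.12, and high-fat PFNA livers 11.70, 11.51 and 13.18. No liver lay between 11.70 and 12.91: 5 were at or above 12.91 and 13 at or below 11.70.

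Hsd17b4, the second bifunctional enzyme, which also takes branched chains and bile acid precursors, moved over a narrower range, from 11.43 to 12.16. Its high-fat PFOS livers read 12.02, 12.15 and 12.16 against 11.60, 11.59 and 11.69 in high-fat controls. Low-fat controls read 11.66, 11.43 and 11.46, low-fat PFOS livers 11.71, 11.63 and 12.05 and low-fat PFNA livers 11.63, 11.59 and 11.79. High-fat PFNA livers read 11.58, 11.63 and 12.11, so that again 1 PFOS liver on the low-fat diet and 1 PFNA liver on the high-fat diet read like the high-fat PFOS group.

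The 2 thiolases, which carry out the final cleavage, differed. They are close relatives with 1 probe each, and how far these probes tell them apart is not known. Acaa1b read 11.70, 11.48 and 11.61 in low-fat controls and 11.49, 11.40 and 11.45 in high-fat controls. On the low-fat diet it read 11.91, 11.96 and 12.36 under PFOS and 11.74, 11.85 and 11.88 under PFNA. On the high-fat diet it read 12.35, 12.43 and 12.45 under PFOS and 11.95, 11.92 and 12.21 under PFNA. All 12 exposed livers lay above all 6 unexposed livers, the nearest values being 11.74 and 11.70. Over all probes, 0.734% placed every exposed liver above every unexposed one, and Acaa1b was the 1 member that did.

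Acaa1a stayed between 8.53 and 8.84 in all but 4 livers, namely high-fat PFOS replicates 2 and 3, low-fat PFOS replicate 3 and high-fat PFNA replicate 3. Its low-fat controls read 8.69, 8.57 and 8.77 and its high-fat controls 8.73, 8.84 and 8.73. High-fat PFOS livers read 8.72, 9.47 and 9.13, so the first lay below all 3 controls. The remaining groups read 8.73, 8.77 and 9.04 (low-fat PFOS), 8.59, 8.53 and 8.67 (low-fat PFNA) and 8.66, 8.79 and 9.21 (high-fat PFNA).

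Hacl1, the lyase of alpha-oxidation, which removes 1 carbon from phytanic acid and other 3-methyl-branched or 2-hydroxy acids, read 10.82, 10.97 and 10.31 in low-fat controls and 9.97, 10.31 and 10.19 in high-fat controls. High-fat PFOS livers read 10.61, 11.07 and 11.08 and high-fat PFNA livers 10.51, 10.22 and 11.06. On the low-fat diet PFOS livers read 10.72, 10.57 and 10.96 and PFNA livers 10.48, 10.48 and 10.63, inside the span of their controls.

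Crat and Crot transfer the products from CoA to carnitine, Crat short acyl groups including acetyl and Crot medium-chain acyl groups. Crat read 9.45, 9.55 and 9.63 in low-fat controls, 9.27, 9.50 and 9.24 in high-fat controls and 10.53, 10.27 and 10.48 in high-fat PFOS livers. Low-fat PFOS livers read 9.77, 9.59 and 10.31, low-fat PFNA livers 9.31, 9.68 and 9.76, and high-fat PFNA livers 9.68, 9.80 and 10.19. The second Crat probe read between 5.44 and 6.13 and its groups overlapped: 5.61, 5.85 and 5.97 in high-fat PFOS livers against 5.50, 5.76 and 5.78 in high-fat controls. Crot, from 11.72 to 12.67, read 12.13, 12.51 and 12.67 in high-fat PFOS livers and 12.15, 12.13 and 12.20 in high-fat controls, which overlap.

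**Figure D1:**
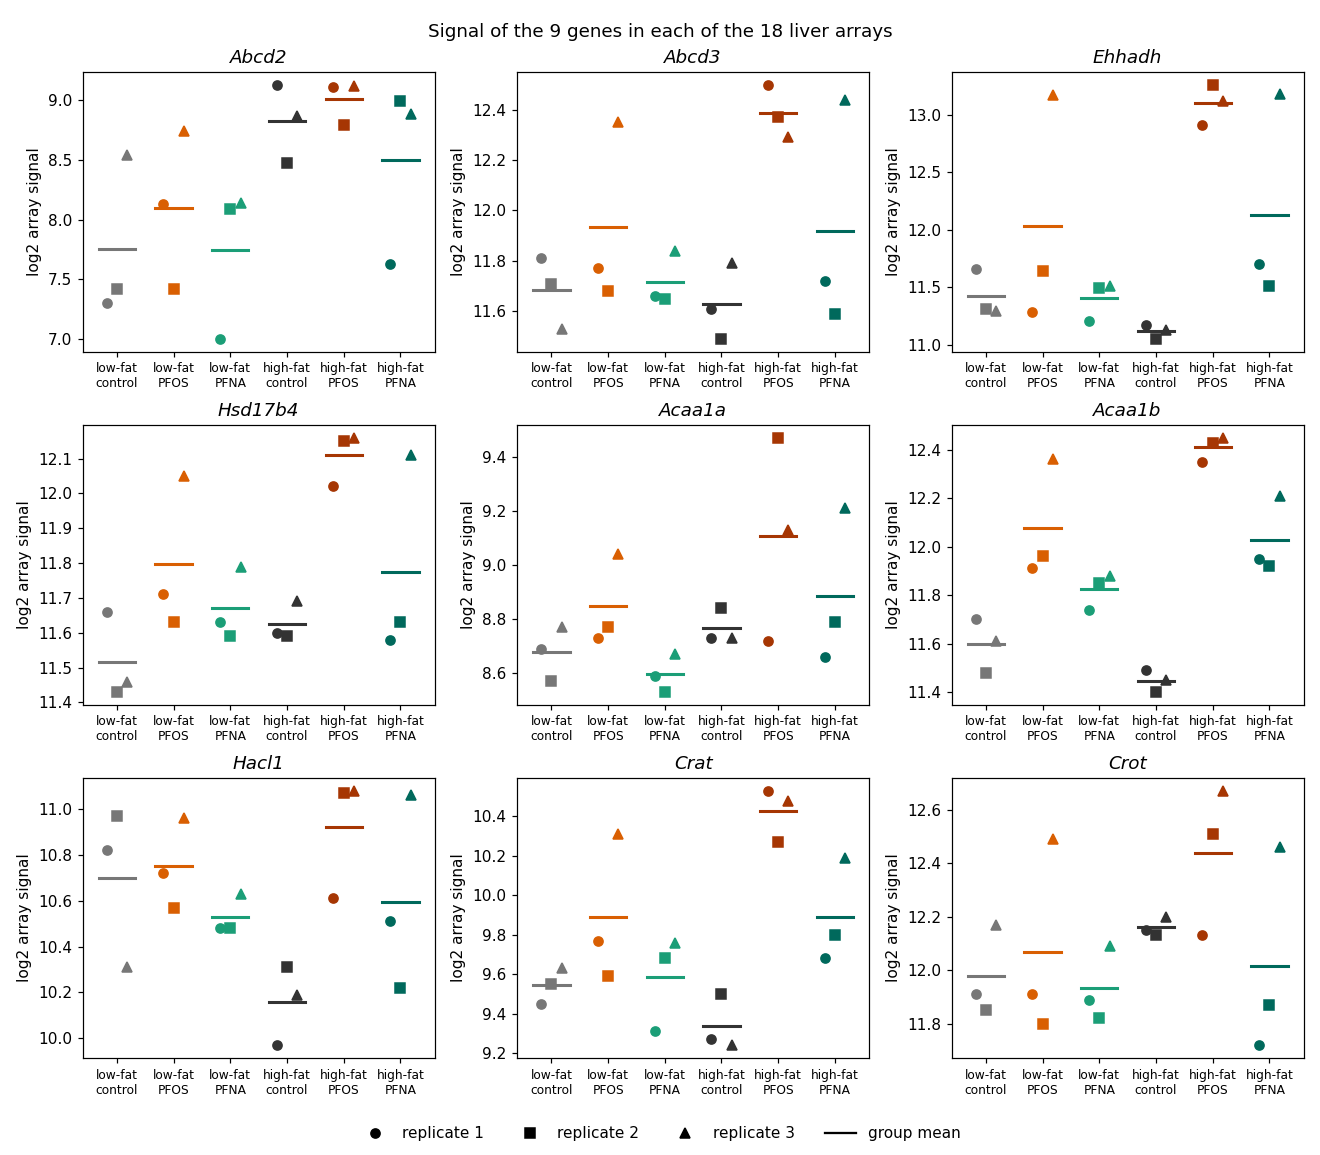
Log2 array signal (vertical axes, each with its own range) of the 9 genes in the 6 groups; each point is 1 liver, its shape gives the replicate number, and the bar is the group mean. Ehhadh has a gap between 11.70 and 12.91 that 1 low-fat PFOS and 1 high-fat PFNA liver cross to join the 3 high-fat PFOS livers.

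High-fat PFOS livers were first compared with high-fat controls. Ehhadh rose by 1.98 (SE 0.40, 95% interval 1.14 to 2.82), 3.94-fold, from 11.12 ± 0.06 in controls to 13.10 ± 0.18 (SD, n = 3 each, limma, adjusted p = 0.0259). Crat rose by 1.09 (SE 0.18, interval 0.71 to 1.47), 2.13-fold, from 9.34 ± 0.14 to 10.43 ± 0.14 (limma, adjusted p = 0.00935). Acaa1b rose by 0.96 (SE 0.13, interval 0.69 to 1.23), 1.95-fold, from 11.45 ± 0.05 to 12.41 ± 0.05 (limma, adjusted p = 0.00178). The 3 of 9 members that passed were thus an enzyme of the middle steps, a thiolase and the carnitine transferase of short acyl groups. Among all 34472 probes, 1.02% passed. Here and below a gene is called when its p-value from limma's two-sided test over all probes, adjusted by Benjamini and Hochberg within the comparison, is under 0.05; 12 comparisons were made.

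The other 6 members were higher on average in high-fat PFOS livers but did not pass. Abcd3 differed by 0.76 (SE 0.20, limma, adjusted p = 0.0738), Hacl1 by 0.76 (SE 0.21, adjusted p = 0.0841) and Hsd17b4 by 0.48 (SE 0.15, adjusted p = 0.124). For these 3, as for the 3 called genes, every high-fat PFOS liver lay above every high-fat control: 6 of 9 members, where 9.71% of all probes did so. Acaa1a differed by 0.34 (interval -0.02 to 0.70), Crot by 0.28 (interval -0.15 to 0.70) and Abcd2 by 0.18 (interval -0.68 to 1.04). The median over the 9 genes was 0.76, while the median over all probes lay within 0.02 of 0. The call of Ehhadh was lost when any 1 of the 6 compared arrays was left out (limma, adjusted p 0.0561 to 0.0903, difference 1.90 to 2.07). It was kept in 8 of 14 alternatives, among them the fit of the compared groups alone (limma, adjusted p = 0.00101). In the main fit its SE pools the spread of all groups, with an SD of 1.0 in low-fat PFOS and 0.91 in high-fat PFNA livers. The call of Crat was lost when its 2 probes were averaged (0.61, limma, adjusted p = 0.0774), and Acaa1b was called in all 14 alternatives.

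PFOS on the low-fat diet gave no call among the 9 genes (limma; 1 at an unadjusted p under 0.05, as 11.9% of all probes were), where 0.389% of all probes were called. All 9 differences were above 0, with a median of 0.28 and a range of 0.05 to 0.61. Acaa1b had the lowest adjusted p, 0.127, at a difference of 0.48 (SE 0.13, interval 0.21 to 0.75), and was the 1 member whose exposed livers all lay above the controls, as 7.58% of all probes did. Ehhadh differed by 0.61 (SE 0.40, adjusted p = 0.575), with 1 liver at 13.17 and the other 2 at 11.28 and 11.64, inside or just below the controls' span. Without that liver, low-fat PFOS replicate 3, the median over the members was 0.04, the range -0.12 to 0.34, and 7 of 9 differences remained above 0.

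PFNA on the low-fat diet also gave no call (limma; 0 at an unadjusted p under 0.05, as 12.9% of all probes were), where 0.566% of all probes were called. The 9 differences lay between -0.17 and 0.23 with a median of -0.01, 4 above and 5 below 0. Ehhadh differed by -0.02 (interval -0.86 to 0.82), Abcd3 by 0.03 (interval -0.39 to 0.45) and Acaa1b by 0.23 (interval -0.04 to 0.50). Acaa1b was again the 1 member with every exposed liver above every control, a pattern that 10.1% of all probes shared.

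PFNA on the high-fat diet gave no call among the members either (limma; 4 at an unadjusted p under 0.05, as 9.77% of all probes were), where 0.113% of all probes were called. Acaa1b differed by 0.58 (SE 0.13, interval 0.31 to 0.85, adjusted p = 0.0937), Crat by 0.55 (SE 0.18, adjusted p = 0.296) and Ehhadh by 1.01 (SE 0.40, adjusted p = 0.405). In these 3 genes every exposed liver lay above every control, as 6.83% of all probes did. Hacl1 differed by 0.44 (adjusted p = 0.508), and Crot and Abcd2 by -0.14 and -0.32. The median was 0.29; without high-fat PFNA replicate 3 it was 0.02, with a range of -0.51 to 0.49, 5 differences above 0, and Ehhadh and Acaa1b both at 0.49. Acaa1b was called when only probes above the median signal were tested (adjusted p = 0.0373) and when the variances were fitted with a trend and robustly (adjusted p = 0.0315).

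**Figure D2:**
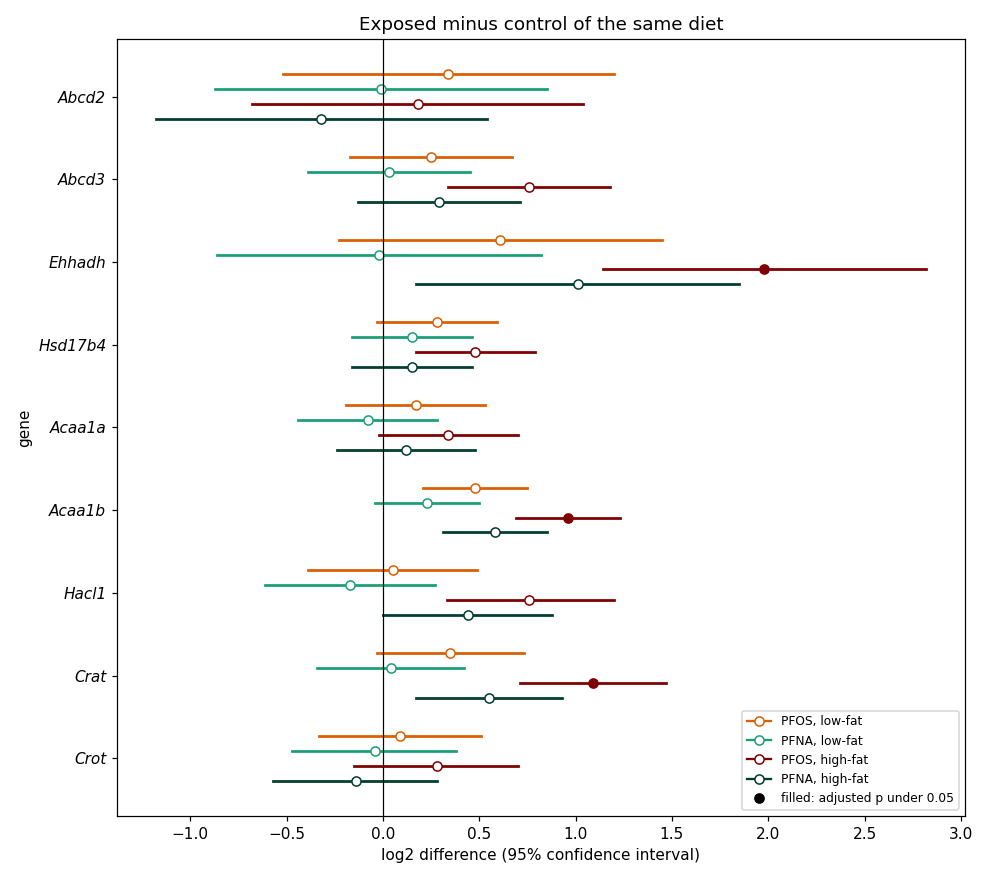
Difference from the control group of the same diet (horizontal axis, log2) for each gene under each exposure, 1 colour per exposure and diet; points are limma estimates, bars 95% intervals, and filled points passed an adjusted p of 0.05. Ehhadh, Crat and Acaa1b under PFOS on the high-fat diet are the filled points.

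With both compounds and both diets averaged, exposed livers differed from unexposed ones in 3 members, where 5.01% of all probes were called. Acaa1b rose by 0.56 (SE 0.08, interval 0.40 to 0.73), 1.48-fold, in 12 exposed against 6 unexposed livers (limma, adjusted p = 0.000569). Crat rose by 0.51 (SE 0.11, 1.42-fold, adjusted p = 0.0133) and Ehhadh by 0.90 (SE 0.24, 1.86-fold, adjusted p = 0.0421). Hsd17b4 and Abcd3 differed by 0.27 (adjusted p = 0.102) and 0.33 (adjusted p = 0.136), Hacl1 by 0.27 (adjusted p = 0.257), Acaa1a by 0.14 and Crot and Abcd2 by 0.04 and 0.05. The call of Ehhadh was lost in 13 of 25 alternatives, with adjusted p up to 0.0969 when low-fat control replicate 2 was left out; the call of Crat was lost when its 2 probes were averaged (0.24, adjusted p = 0.192). This comparison shares its arrays with the 4 above and is not a further replication of them.

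PFNA, with its carboxylic acid head, was compared with PFOS, with its sulfonic acid head, in 2 pairs of groups, 1 on each diet, with p-values adjusted over all probes. All 9 genes read lower on average under PFNA on each diet, but none was called. On the high-fat diet the differences ran from -0.97 to -0.22 with a median of -0.42, and 5 of 9 had an unadjusted p under 0.05 (limma), as did 7.26% of all probes. After adjustment 0.0029% of all probes, 1 probe, were called. Ehhadh was at -0.97 (interval -1.81 to -0.13, adjusted p = 0.654), Crat at -0.54 (interval -0.92 to -0.16, adjusted p = 0.654) and Acaa1b at -0.38 (interval -0.65 to -0.11, adjusted p = 0.654). In Crat and Acaa1b every PFNA liver lay below every PFOS liver, which held for 5.14% of all probes; in Ehhadh they overlapped, because 1 PFNA liver read 13.18.

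On the low-fat diet the differences between PFNA and PFOS ran from -0.63 to -0.13 with a median of -0.25, and none had an unadjusted p under 0.05, as 3.92% of all probes did; 0% of all probes were called (limma). Ehhadh was at -0.63 (interval -1.47 to 0.21) and Acaa1b at -0.25 (interval -0.52 to 0.02). The interval for Ehhadh still holds a difference of -1, so equal action of the 2 compounds is not shown. Without low-fat PFOS replicate 3 the median was -0.06 with 1 gene above 0, and Ehhadh was at -0.06.

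**Figure D3:**
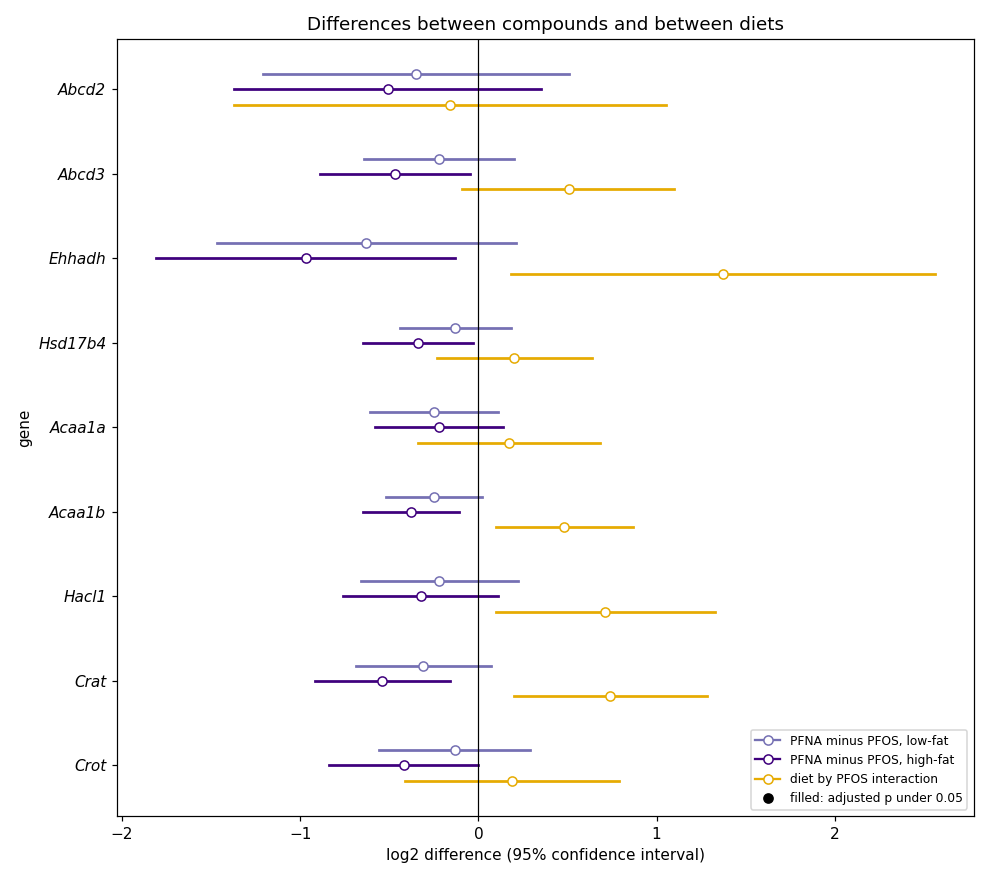
Difference between PFNA and PFOS livers on each diet, and the dependence of the PFOS difference on diet (horizontal axis, log2), for each gene; points are limma estimates and bars 95% intervals. The PFNA minus PFOS points of all 9 genes lie below 0 on each diet, and no point is filled because none passed an adjusted p of 0.05.

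Between the control groups of the 2 diets no member was called (limma; 2 at an unadjusted p under 0.05, as 6.45% of all probes were), where 0.0029% of all probes were. Abcd2 differed by 1.07 in the high-fat direction (SE 0.41, interval 0.21 to 1.93, adjusted p = 0.722) and Hacl1 by -0.54 (SE 0.21, interval -0.98 to -0.11, adjusted p = 0.723), each with overlapping groups. Ehhadh differed by -0.30 (interval -1.14 to 0.54), and its high-fat controls all lay below its low-fat controls, as 5.54% of all probes did. The remaining members lay between -0.21 and 0.18.

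Among PFOS livers all 9 genes read higher on the high-fat than on the low-fat diet, by 0.17 to 1.07 with a median of 0.37; none was called (limma; 6 at an unadjusted p under 0.05, as 7.73% of all probes were), and 0% of all probes were. Ehhadh differed by 1.07 (interval 0.23 to 1.91, adjusted p = 0.613) and Crat by 0.54 (interval 0.16 to 0.92, adjusted p = 0.613). The test of whether the PFOS difference itself depended on diet called no member and 0% of all probes (limma; 4 members at an unadjusted p under 0.05, as 6.36% of all probes were). Its estimate was 1.37 for Ehhadh (SE 0.56, interval 0.18 to 2.56, adjusted p = 0.759), 0.74 for Crat, 0.71 for Hacl1 and 0.48 for Acaa1b. So 3 calls on the high-fat diet and none on the low-fat diet do not show a dependence on diet.

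For PFNA the diets differed by 0.07 to 0.76 with a median of 0.20, and the dependence on diet ran from -0.31 to 1.03 with a median of 0.25. Both tests called 0 members and 0% of all probes (limma; 0 members at an unadjusted p under 0.05 in each, against 4.18% and 5.18% of all probes). Ehhadh had an estimate of 1.03 for that dependence (SE 0.56, interval -0.16 to 2.22) and differed by 0.73 between the diets. Without high-fat PFNA replicate 3 these were 0.50 and 0.20. The members' difference between diets then ran from -0.17 to 0.57, with 5 of 9 above 0, and the median of the dependence on diet was 0.04.

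The arrays themselves fell unevenly within groups. The first principal component over all probes, 17.9% of the variance, put the 3 high-fat PFOS arrays at 27.8 to 38.6, low-fat PFOS replicate 3 at 32.9 and high-fat PFNA replicate 3 at 32.4, and the other 13 between -22.9 and -8.1. The median signal lay between 4.43 and 4.59 in all 18 arrays and correlations between arrays between 0.9749 and 0.9913. No label sets low-fat PFOS replicate 3 or high-fat PFNA replicate 3 apart from its group. In the 9 genes the same 5 arrays stood out: the median deviation from each gene's own mean was 0.45, 0.49 and 0.55 in the high-fat PFOS livers, 0.42 in low-fat PFOS replicate 3 and 0.41 in high-fat PFNA replicate 3. It lay between -0.29 and -0.02 in the other 13. Low-fat PFOS replicate 3 had all 9 members above their own means, while replicates 1 and 2 of its group had 2 and 1.

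**Figure D4:**
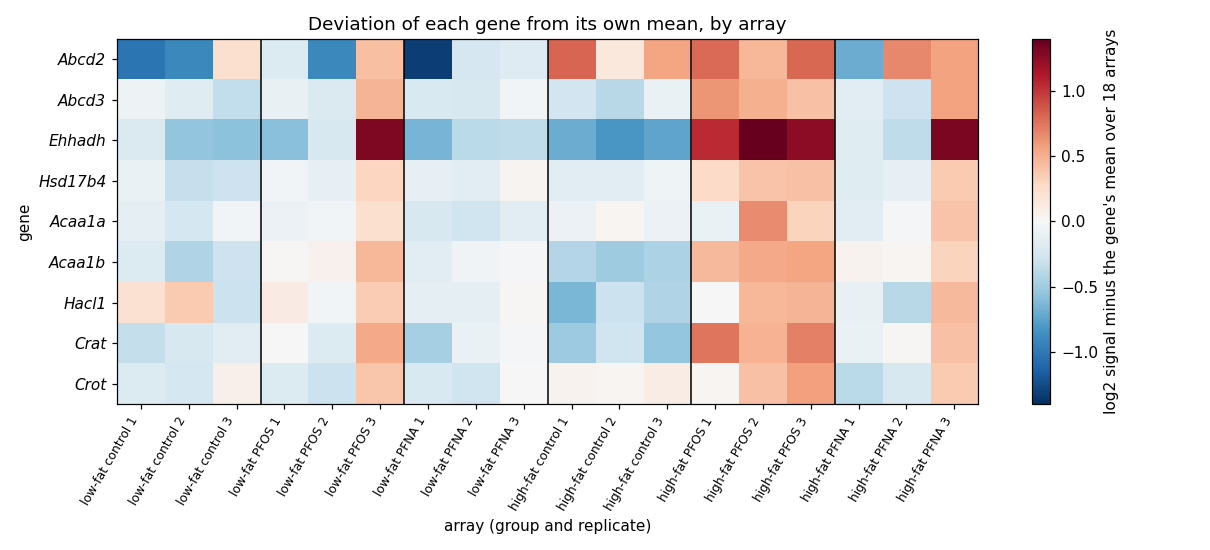
Deviation of each gene from its own mean over the 18 arrays (colour, log2 units) for each array. The 3 high-fat PFOS columns, low-fat PFOS replicate 3 and high-fat PFNA replicate 3 are high in nearly all rows, and Abcd2 has the most irregular row.

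The 5 highest arrays were the same in Ehhadh, Abcd3, Hsd17b4, Acaa1b and Crat. Acaa1a, Hacl1 and Crot shared 4 of these 5 and Abcd2 shared 3. Over the 18 arrays Pearson's r with Ehhadh was 0.95 for Abcd3, 0.92 for Hsd17b4, 0.91 for Acaa1b, 0.91 for Crat and 0.73 for Crot. Over the other 13 arrays it was 0.77 for Acaa1b, 0.53 for Crat, 0.40 for Abcd3, 0.14 for Hsd17b4 and -0.69 for Crot. These are descriptions over arrays that share groups. The 13 arrays are those outside the 5 highest in Ehhadh, so its range there is narrower by that choice. A lower r among them is partly fixed in advance.

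Outside these 5 arrays, the exposed livers read 11.74 to 11.96 in Acaa1b, above all 6 controls at 11.40 to 11.70. In Ehhadh such livers on the low-fat diet read 11.21 to 11.64, within or below the spread of their controls at 11.29 to 11.66. On the high-fat diet, PFNA replicates 1 and 2 lay above all 3 controls in both genes, by 0.58 and 0.39 over the control mean in Ehhadh and 0.50 and 0.47 in Acaa1b. Relative to its diet's control mean, Ehhadh was 3.36-fold in low-fat PFOS replicate 3, 4.18-fold in high-fat PFNA replicate 3 and 3.47-fold, 4.42-fold and 4.01-fold in the high-fat PFOS livers. It was between 0.865-fold and 1.50-fold in the other 7 exposed livers.

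**Figure D5:**
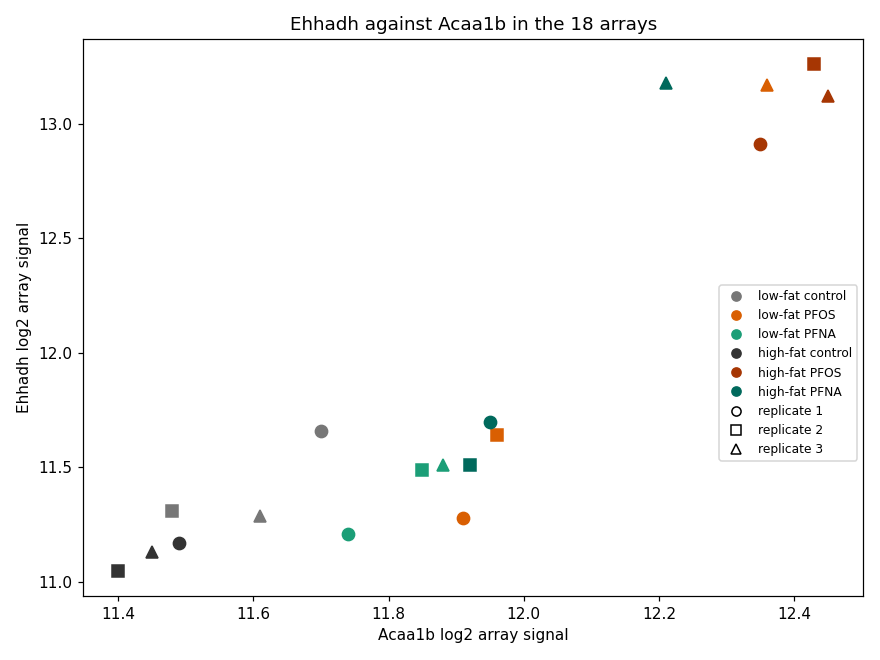
Ehhadh (vertical axis) against Acaa1b (horizontal axis), log2 array signal, 1 point per liver, coloured by group with the replicate number as shape. Controls lie at the left, 7 exposed livers are further right at a similar Ehhadh level, and 5 lie at the top right with Ehhadh at or above 12.91.

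With low-fat PFOS replicate 3 and high-fat PFNA replicate 3 both left out, a choice made after their values were seen, high-fat PFOS livers differed from controls in 6 members and 2.93% of all probes. Abcd3 (0.76, adjusted p = 0.00318), Hsd17b4 (0.48, adjusted p = 0.025) and Hacl1 (0.76, adjusted p = 0.0296) were then called beside the former 3 (limma). PFNA against PFOS on the high-fat diet then called 3 members, Ehhadh at -1.49 (SE 0.16, adjusted p = 0.000331), Abcd3 at -0.73 and Crat at -0.69, and 1.48% of all probes. Under PFOS the 2 diets differed in Ehhadh (1.64, SE 0.16, adjusted p = 0.00012), Crat, Abcd3 and Acaa1b, and in 2.22% of probes; the dependence of the PFOS difference on diet was called in Ehhadh (1.94, SE 0.22, adjusted p = 0.00125) and in 0.241% of probes. Since the arrays left out are the very ones that read unlike their groups, the remaining spread within groups is smaller by that choice, and these values describe the other 16 arrays only.

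Genes with the most similar pattern over the 18 arrays were sought among 11816 named genes above the median signal. Closest to the members' median profile was Slc39a5, a zinc transporter, at a Pearson's r of 0.975, followed by Hprt (0.972), the purine salvage enzyme that is often used as a reference gene. Rdh16, a retinol dehydrogenase, was at 0.971, Acadl, the mitochondrial long-chain acyl-CoA dehydrogenase, at 0.967 and Sptlc3, a subunit of serine palmitoyltransferase, at 0.967. Ech1 (0.966), an isomerase of unsaturated chains, Pex11a (0.964), which acts in peroxisome division, and Acot2 (0.963), a mitochondrial acyl-CoA thioesterase, completed the 8. Sptlc3 ranged from 3.12 to 9.66, and it read 8.88 to 9.66 in the 5 arrays and 3.12 to 5.0 in the other 13. Hprt read 9.26 to 9.46 in those 5 arrays and 7.88 to 8.64 elsewhere. Over the other 13 arrays, chosen as before by Ehhadh, r was between 0.411 (Pex11a) and 0.796 (Hprt). For Ehhadh alone the closest were Ddhd2 (0.986), a lipase, Ndufs4 (0.977), a subunit of respiratory complex I, and Strbp (0.971), an RNA-binding protein.

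The rest of the pathway was read from lists of named genes. Over all probes, 1.02% were called in high-fat PFOS, 0.389% in low-fat PFOS, 0.566% in low-fat PFNA and 0.113% in high-fat PFNA livers. With all exposures averaged the share was 5.01%. These shares stand beside the counts of every list below. Of 26 further peroxisomal fatty acid genes measured, 3 were called in high-fat PFOS livers, all higher: the acyl-CoA thioesterases Acot3 (1.48, SE 0.24, limma, adjusted p = 0.00935), Acot4 (1.21, SE 0.27, adjusted p = 0.0375) and Acot5 (0.95, SE 0.18, adjusted p = 0.0208). Acot5 read 2.87 and 3.82 on average, below the median probe, so its fold is uncertain. The list's median was 0.23 against 0.76 for the 9 members. None of the 26 was called in the other 3 exposure comparisons, with medians of 0.13 (low-fat PFOS), 0.00 (low-fat PFNA) and 0.13 (high-fat PFNA), nor between control diets. With all exposures averaged 5 of 26 were called, all higher: Acot3 (0.94), Dhrs4 (0.48), Nudt19 (0.35), and also Ech1 and Tysnd1, the protease that trims imported peroxisomal enzymes.

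Of 13 peroxisome biogenesis genes, Pex3, which inserts membrane proteins, was called in high-fat PFOS livers (0.57, SE 0.13, limma, adjusted p = 0.0453), with a list median of 0.20. Of 17 genes of mitochondrial beta-oxidation, 2 were called there, both higher: Acadl (0.73, SE 0.15, adjusted p = 0.0259) and the carnitine carrier Slc25a20 (0.63, SE 0.13, adjusted p = 0.0266), with a median of 0.44. Neither list had a call in the other 3 exposures. With all exposures averaged Pex3 (0.33) and Pex26 (0.36) were called among the biogenesis genes, and Slc25a20 (0.52), Acadl (0.38) and Cpt2 (0.32) among the mitochondrial ones, all higher.

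A further list held 18 measured genes: other PPARA targets, the receptor itself, and the regulators Rxra and Ppargc1a. Of these, 6 were called in high-fat PFOS livers, all higher: Aqp3 (2.79, SE 0.64, adjusted p = 0.0457), Acot1 (2.71, SE 0.37, adjusted p = 0.00218), Acot2 (2.61, SE 0.43, adjusted p = 0.00935), Cyp4a31 (2.47, SE 0.50, adjusted p = 0.0259), and also Me1 and Cyp4a14 (limma). The genes of the Acot and Cyp4a clusters are close relatives, and how far their probes tell them apart is not known. In low-fat PFOS livers 1 of the 18 rose, Cd36 (1.47, SE 0.31, adjusted p = 0.046), in low-fat PFNA livers 1 fell, Ppargc1a (-1.10, SE 0.20, adjusted p = 0.0163), and in high-fat PFNA livers none was called. With all exposures averaged 6 of the 18 were called higher, with Acot1 (1.48), Acot2 (1.41), Cyp4a31 (1.23) and Cd36 (1.04) at the largest differences, and Rxra and Ppargc1a were called lower. Ppara itself read between 9.72 and 10.07 in all 18 arrays.

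The 10 targets of CAR, a second nuclear receptor that responds to foreign compounds, were read beside them. In low-fat PFNA livers, where no member was called, 7 of 10 were higher (limma), among them the drug-metabolising cytochromes Cyp2b10 (5.71, SE 0.67, adjusted p = 0.00125) and Cyp2c55 (3.72, SE 0.47, adjusted p = 0.00196). Low-fat PFOS livers also had 7 called, high-fat PFNA livers 4 and high-fat PFOS livers 2; none was called between the compounds, between diets under a compound or for the dependence on diet. With all exposures averaged 9 of 10 were called, all higher. In low-fat PFOS replicate 3, where Ehhadh was high, Cyp2b10 read 7.94, below 9.59 and 10.63 in the other 2 livers of the group, and in high-fat PFNA replicate 3 it read 7.70, below 10.63 and 9.75. No test was made of that difference between arrays.

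Cell type markers were read beside these values. The summed log2 signal of 8 hepatocyte markers lay between 15.33 and 15.63 in all arrays; none of the 8 was called in the 4 exposure comparisons, and Apoa1 and Serpina1a were called lower with all exposures averaged (-0.28 and -0.30, limma). Of 5 adipocyte markers 4 were measured, and their summed signal ran from 8.86 to 9.45 in high-fat PFOS livers, 6.85 to 9.23 in low-fat PFOS, 6.94 to 8.89 in high-fat PFNA, 6.90 to 7.50 in low-fat PFNA, 6.58 to 6.84 in low-fat controls and 7.07 to 7.22 in high-fat controls. That followed Fabp4, at 8.73 to 9.36 in the same 5 arrays and 5.48 to 7.10 in the others. Adipoq (2.07 to 2.84) and Lep (3.38 to 4.03), defining genes of fat cells, lay below the median probe in all arrays and Plin1 between 4.27 and 5.03, with none of the 4 called.

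Kupffer cell markers (7, summed 9.80 to 11.26), stellate cell markers (6), lymphocyte markers (5), cholangiocyte markers (4) and exocrine pancreas markers (2 measured) had no call in the 4 exposure comparisons or with all exposures averaged. Of 6 endothelial markers Oit3 was called with all exposures averaged (0.56, SE 0.13, limma, adjusted p = 0.019). The part of these markers in the members' differences was not tested.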

How the data were processed

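Liver RNA from 18 mice, 3 biological replicates in each of 6 groups, was hybridised to expression arrays summarised at gene level. The deposited values are log2 signals. The submitters' processing notes name Transcriptome Analysis Console; no source used here gives its version, the summarisation or the normalization. The log base was inferred from the range of the values. They were used as deposited.

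Of 34472 probes, 23521 carried 1 gene symbol in the platform annotation, 1814 several and 9137 none, and probes with several named no gene. The 9 genes and all lists were chosen with earlier results of these data known. For each gene the probe with the highest mean was used. With limma, all probes entered 1 linear model of the 6 group means (version 3.58.1 in R 4.3.3, with 12 residual and 5.21 prior degrees of freedom), with Benjamini-Hochberg adjustment within each of 12 comparisons. In each comparison the 9 genes were described by name or by their range. Of a list, up to 4 called genes were given values; for similarity, the 8 genes closest to the members' median profile and the 3 closest to Ehhadh were named. On simulated data with 200 changed probes among 34472, the fit recovered 97% to 100% of them, by comparison. The planted differences were larger than every difference of the 9 genes in the main fit, so recovery at the members' sizes was not tested. The number of arrays, 3 in a group, limits the precision. The p-values weigh a difference between group means against the spread among livers within groups, pooled over all 6 groups.

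No pairing by replicate number was seen across whole groups. Correlations of same-numbered deviations had a median of -0.001, and 0 of 15 pairs of groups had every correlation over 0.1. The highest, 0.421, was between low-fat PFOS replicate 3 and high-fat PFNA replicate 3. This rule cannot detect something shared by single arrays only. Alternatives were a replicate block, array weights, trended and robust variances, quantile normalization, only the compared groups in the fit, a filter on low signal, the mean of a gene's probes and leaving out each array.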

Additional observations from a re-analysis of the deposited data

How the results depend on the processing

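Acaa1b was called in all 14 alternatives for PFOS on the high-fat diet (0.94 to 0.99, adjusted p up to 0.0154) and in all 25 for any exposure (0.50 to 0.59, adjusted p up to 0.00286). The 3 members called for PFOS on the high-fat diet became 5 when probes above the median signal alone were tested. Testing fewer probes changes the adjustment for every probe kept, and whether that rise is particular to the members was not tested. There were 4 with array weights, 4 with trended and robust variances and 2 with the mean of a gene's probes. Leaving out 1 of the compared arrays gave 2. The share of all probes called in each of these settings is not given here, so a change over all probes is not told apart. With both arrays that read unlike their groups left out, a choice made after seeing the data, there were 6. Of all probes 2.93% were then called. The 0 members called for PFNA on the high-fat diet became 1 with probes above the median signal and 1 with trended and robust variances. Without those 2 arrays the 0 members called became 3 for PFNA against PFOS on the high-fat diet, 4 for diet under PFOS and 1 for the dependence of PFOS on diet. The shares of all probes called were 1.48%, 2.22% and 0.241%, in that order. With a replicate block 3 members were called for PFOS on the high-fat diet and 3 for any exposure, as without it, and 0 in the other 10 comparisons. Of differences not called, 48 of 792 changed sign when 1 array was left out, 14 of 102 without the 2 arrays and 5 of 708 under the other settings. The cause was not tested. For PFOS on the high-fat diet the intervals of Acaa1a, Crot and Abcd2 included 0.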
